A study of Homo sapiens with 6 samples.

Results

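The human mitochondrial genome holds 37 genes, those whose symbols start with MT-: 13 mRNAs for subunits of respiratory complexes I, III, IV and V, 2 ribosomal RNAs (rRNAs) and 22 transfer RNAs (tRNAs). All 37 were taken, out of 58219 gene identifiers in the tables, and their levels were compared between 2 groups of U2OS libraries, an osteosarcoma cell line. Cells of the first group carried an shRNA against E4F1, a zinc finger transcription factor, and cells of the second a scramble control shRNA, with 3 libraries each from pools that the labels call independent. In both groups infection lasted 24 h, puromycin selection followed for 48 h, and RNA was taken at 72 h; libraries were made from polyadenylated RNA. The labels name no shRNA sequence and no second shRNA.

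Mitochondrial DNA is transcribed from both of its strands into long precursors that run through many genes. The transcript that reads as the plus strand of the annotation starts at the heavy-strand promoter and carries both rRNAs, 12 of the mRNAs and 14 of the tRNAs. The transcript of the minus strand starts at the light-strand promoter and carries 1 mRNA, MT-ND6, and 8 tRNAs. The rest of it lies opposite the plus-strand genes and has no annotated gene, and most of it is normally degraded. The tRNAs are cut out of the precursors, which frees the mRNAs and rRNAs between them. Most mitochondrial mRNAs then receive a short poly(A) tail, which in several completes the stop codon; MT-ND6 is known as the exception without a regular tail.

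Reads in genes numbered 16169103, 16892139 and 16159934 in the E4F1 shRNA libraries and 14947085, 16284450 and 15625332 in the control libraries. E4F1 itself had 51, 53 and 41 reads in the E4F1 shRNA libraries, against 233, 286 and 297 in the control libraries (edgeR adjusted p = 7.65e-10, log2 fold change −2.57 with SE 0.14). The 7 markers of mesenchymal and osteosarcoma cells summed to 4347 to 4508 CPM (reads scaled to 1000000 reads in genes, with TMM factors) in E4F1 shRNA libraries and 4876 to 5098 CPM in control libraries; VIM and COL1A1 fell, by 0.25 and 0.16 on the log2 scale, and the other 5 were not called. COL1A1, SPARC, VIM, CDH2, RUNX2 and ALPL were present, while COL1A2 was nearly absent, at 0.675 CPM in E4F1 shRNA cells and 0.770 CPM in control cells. The 4 epithelial markers together had 14.2 to 15.8 CPM in E4F1 shRNA libraries and 13.8 to 15.6 CPM in control libraries, the blood and endothelial markers under 3 CPM each in sum, and the 4 genes of the packaging cell line HEK293T 114 to 121 CPM in E4F1 shRNA libraries and 115 to 129 CPM in control libraries, nearly all from NEFL. Of the 3 epithelial markers tested 1 fell and 1 rose, which their sum does not show. The part of the mesenchymal and epithelial markers in the results below was not tested. Along the first principal component of all genes the E4F1 shRNA libraries lay at −22.7 to −17.5, and control library 2, at 9.85, was nearer to them than controls 1 and 3, at 20.9 and 31.1.

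The places where mitochondrial genes meet or overlap bear on which reads a gene can receive, since reads that overlap 2 genes of the same strand stand in a separate line of the tables. The largest overlap of mRNAs on the same strand, not shown here, is 46 bases between MT-ATP8, 207 bases long, and MT-ATP6. MT-ATP6 and MT-CO3 share 1 base. How far reads lost in these shared bases affect the counts of MT-ATP8 and MT-ATP6 was not tested. Other such places are shown here from the GENCODE release 29 transcripts on GRCh38, each 5′ to 3′ on the strand of its gene. MT-ND5 (plus strand) and MT-ND6 (minus strand) meet tail to tail with no base between them, and capitals mark their last codons.
MT-ND5, last 30 bases, chrM:14119-14148, plus strand: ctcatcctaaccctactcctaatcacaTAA
MT-ND6, last 30 bases, chrM:14149-14178, minus strand: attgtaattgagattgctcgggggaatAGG
MT-ND4L and MT-ND4 share 7 bases, marked by capitals, in which the first gene ends and the second begins.
MT-ND4L, last 30 bases, chrM:10737-10766, plus strand: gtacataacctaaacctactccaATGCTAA
MT-ND4, first 30 bases, chrM:10760-10789, plus strand: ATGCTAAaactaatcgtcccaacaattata
MT-ND4 is also one of 6 mRNAs whose annotated sequence ends inside a codon; the capital T is all that the DNA gives of its stop codon.
MT-ND4, last 30 bases, chrM:12108-12137, plus strand: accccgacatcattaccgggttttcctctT

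Levels per length differed widely among mitochondrial genes, also among the plus-strand genes, which share 1 precursor. The large rRNA MT-RNR2 (chrM:1671-3229) had 7620 CPM per kilobase in E4F1 shRNA cells and 9750 in control cells, and the small rRNA MT-RNR1 (chrM:648-1601) 2907 and 3383. Among mRNAs the highest level per kilobase was that of MT-CO3, a core subunit of cytochrome c oxidase, with 7502 CPM per kilobase in E4F1 shRNA cells and 9365 in control cells. The lowest was that of MT-ND5, a complex I subunit and the longest of the mRNAs, with 653 and 801 CPM per kilobase. MT-ND6, also a subunit of complex I, stood next to it with 1251 and 961 CPM per kilobase. In both groups these 2 were the lowest of the 13 mRNAs. All these levels are from polyadenylated libraries, and MT-ND6 lacks a regular tail. Reads shared between genes of the same strand or with nuclear copies are in no gene's count. How far capture and such reads set the ranking was not tested.

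**Figure D1:**
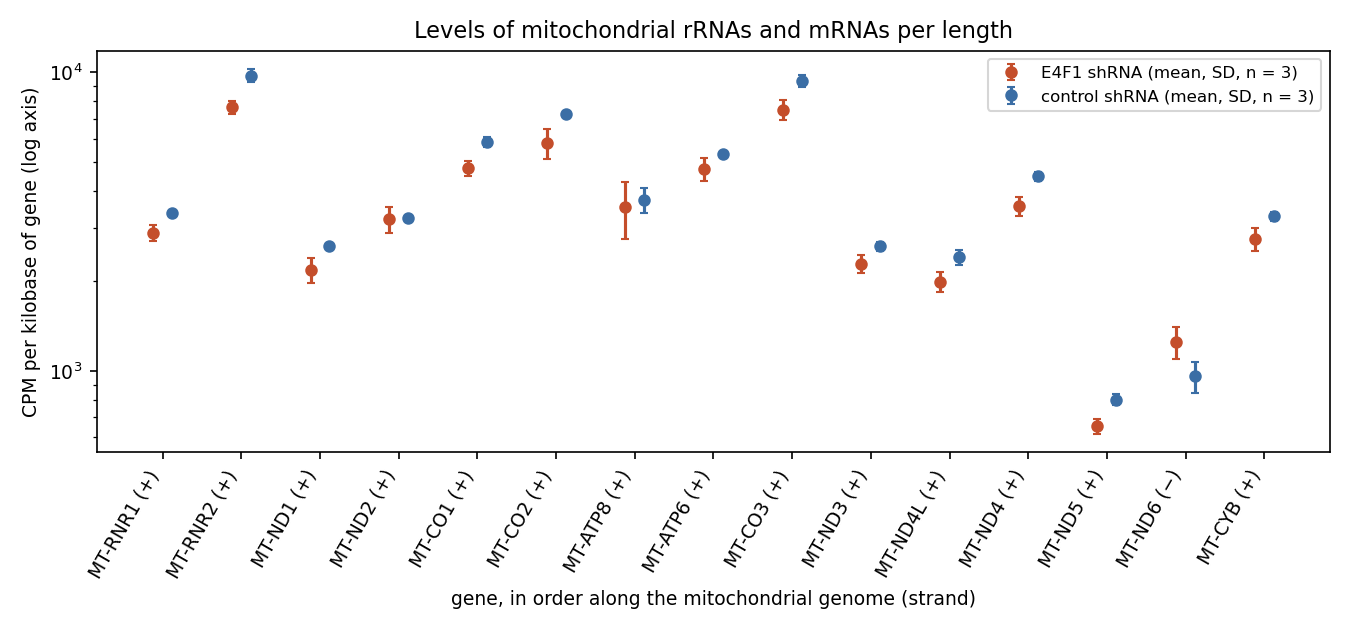
Level of each mitochondrial rRNA and mRNA in CPM per kilobase of annotated gene (log axis), in genome order with the strand in brackets; points are means and bars SD over 3 libraries, E4F1 shRNA left of control shRNA. MT-RNR2 and MT-CO3 are highest and MT-ND5 lowest in both groups, and MT-ND6 is the only gene with a higher mean in E4F1 shRNA cells. Levels are not corrected for capture by poly(A) tail.

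Plus-strand mRNAs were lower in E4F1 shRNA cells and MT-ND6, the only minus-strand mRNA, was higher. Of 5 minus-strand tRNAs tested none was called, with a median log2 value of −0.017. How MT-ND6, which lacks a regular tail, is captured in polyadenylated libraries was not tested. Of the 12 plus-strand mRNAs 10 fell and none rose, with a median log2 fold change of −0.27 and a range of −0.33 to −0.011; MT-ND6 rose by 0.38. Over all 15765 genes tested 14.4% fell and 14.4% rose, with a median log2 value of −0.0096. The edgeR adjusted p-values behind these calls weigh the group difference against the spread between 3 pools a group, which may be partly technical. That spread is estimated with information from all genes tested. In such bulk libraries a difference in some of the cells cannot be told apart from a smaller one in all of them.

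By complex, 5 of the 7 complex I mRNAs fell, 1 rose (MT-ND6) and 1 was not called (MT-ND2). All 3 cytochrome c oxidase mRNAs fell, with log2 fold changes of −0.33 to −0.29, as did MT-CYB, the only mitochondrial gene for complex III (log2 −0.25). Of the 2 ATP synthase mRNAs MT-ATP6 fell and MT-ATP8 was not called. Of the 6 mRNAs with an incomplete stop codon in the DNA 5 fell, and of the 7 with complete codons 5 fell and MT-ND6 rose. Base composition varied little among the mRNAs, from 39.6% to 47.7% GC.

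MT-ND6 (ENSG00000198695, chrM:14149-14673, minus strand) had 749, 594 and 626 CPM in the E4F1 shRNA libraries, against 568, 497 and 448 CPM in the control libraries. All 3 E4F1 shRNA libraries lay above all controls, with library 1 highest of its group; over all genes tested 20.7% were higher without overlap. MT-ND6 rose by 0.38 on the log2 scale (SE 0.084, edgeR adjusted p = 0.00264). As a share of mitochondrial mRNA reads, MT-ND6 took 1.81%, 1.62% and 1.77% in the E4F1 shRNA libraries, against 1.25%, 1.13% and 0.974% in the controls. These shares come from the same counts, so with most other mitochondrial mRNAs lower they are not a separate observation.

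MT-ND5, whose end abuts that of MT-ND6, had 1258, 1123 and 1170 CPM in the E4F1 shRNA libraries, against 1501, 1382 and 1471 CPM in the control libraries. The groups did not overlap (log2 −0.29, SE 0.057, edgeR adjusted p = 0.001). MT-ND4, a complex I subunit of the proton-pumping arm, had 5335, 4761 and 4637 CPM in the E4F1 shRNA libraries, against 6239, 5941 and 6362 CPM in controls. This was the largest fall among the mRNAs, by 0.33 on the log2 scale (SE 0.061, edgeR adjusted p = 0.000683), with MT-CO2, which holds the binuclear copper site of cytochrome c oxidase, at nearly the same value. MT-CO2 had 4445, 3870 and 3554 CPM in the E4F1 shRNA libraries, against 4938, 4918 and 5067 CPM in the controls.

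The other plus-strand mRNAs that fell were MT-CO1, MT-CO3, MT-ND4L, MT-ND1, MT-CYB, MT-ND3 and MT-ATP6, by 0.29, 0.32, 0.27, 0.26, 0.25, 0.19 and 0.17 on the log2 scale, each with no overlap between groups. Over all genes tested 21.1% were lower without overlap. The calls of MT-ATP6 and MT-ND3 were the least firm: MT-ATP6 lost its call in 7 of 15 alternative analyses and MT-ND3 in 5. Leaving out 1 library at a time, 7 to 11 mRNAs fell and MT-ND6 rose every time.

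MT-ND2 and MT-ATP8 did not pass the test. Both had their highest value in E4F1 shRNA library 1, which was the highest of its group for every mitochondrial mRNA. MT-ND2, another complex I subunit, had 3711, 3318 and 3031 CPM in the E4F1 shRNA libraries, against 3382, 3411 and 3341 CPM in the controls (log2 −0.011, SE 0.065, edgeR adjusted p = 0.922). MT-ATP8, a small ATP synthase subunit, had 912, 630 and 649 CPM in the E4F1 shRNA libraries, against 843, 785 and 693 CPM in the controls (log2 −0.083, SE 0.10, edgeR adjusted p = 0.592). The groups overlapped for both. Without E4F1 shRNA library 1 MT-ATP8 had log2 −0.27 and was called, while MT-ND2 had −0.081 and was not. Library 1 also had the highest mitochondrial share of gene reads in its group, 5.66%, against 5.13% and 5.02% in E4F1 shRNA libraries 2 and 3 and 6.37%, 6.16% and 6.52% in the controls.

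Both rRNAs fell. MT-RNR2 had 12410, 11965 and 11265 CPM in the E4F1 shRNA libraries, against 14817, 14684 and 16101 CPM in the control libraries, a fall by 0.36 on the log2 scale (SE 0.060, edgeR adjusted p = 0.000332). MT-RNR1 had 2977, 2672 and 2670 CPM, against 3224, 3291 and 3166 CPM in the controls (log2 −0.22, SE 0.057, edgeR adjusted p = 0.00798). The groups were apart for both genes. Without E4F1 shRNA library 2 MT-RNR1 was not called (edgeR adjusted p = 0.0578).

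**Figure D2:**
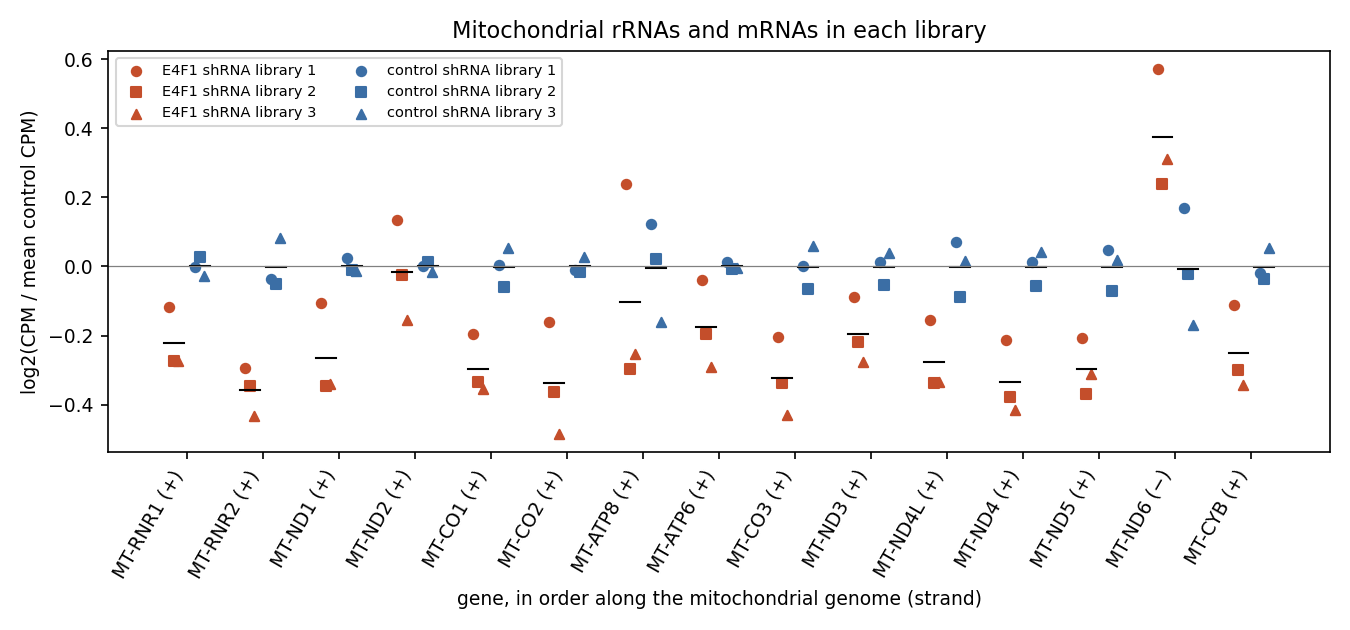
Log2 ratio of each library's CPM to the mean control CPM for the 2 rRNAs and 13 mRNAs in genome order; each point is a library, E4F1 shRNA left of control shRNA, and black bars are group means of the log2 ratios. MT-ND6 is the only gene with all 3 E4F1 shRNA libraries above all controls, and E4F1 shRNA library 1 is the highest of its group for every gene.

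The same split by strand appeared in reads opposite the annotated genes. The tables also count, for each gene, reads of the other strand; at a plus-strand mitochondrial gene these are minus-strand reads without an annotated gene, and at MT-ND6 they are plus-strand reads. These opposite-strand counts were tested as further features with the scaling of the gene counts, which gave 15791 features in all, of which 14.4% fell and 14.4% rose. Opposite the 12 plus-strand mRNAs, minus-strand reads rose at 8 and fell at none, with a median log2 fold change of 0.27. Opposite MT-ND6, plus-strand reads fell.

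Opposite MT-ND5 the minus-strand reads outnumbered those of the gene itself. They had 2463, 2116 and 2345 CPM in the E4F1 shRNA libraries, against 2128, 1860 and 1725 CPM in the control libraries, with E4F1 shRNA library 2 just below control library 1 (log2 0.28, SE 0.073, edgeR adjusted p = 0.00882). Opposite MT-ND4 they had 896, 744 and 852 CPM in the E4F1 shRNA libraries, against 723, 628 and 560 CPM in the controls, with no overlap (log2 0.38, SE 0.081, edgeR adjusted p = 0.002). The largest rise was opposite MT-ND4L, with 144, 108 and 123 CPM in the E4F1 shRNA libraries, against 98.5, 83.8 and 77.5 CPM in the controls (log2 0.53, SE 0.092, edgeR adjusted p = 0.000437). MT-ND4 and MT-ND4L are the overlapping neighbours whose shared bases are shown above.

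Minus-strand reads also rose opposite MT-ND3 (log2 0.41), MT-ATP6 (0.33), MT-CO3 (0.27), MT-ATP8 (0.27) and MT-CO1 (0.27). The groups overlapped opposite MT-ATP6, MT-CO3 and MT-ATP8, and did not overlap opposite MT-ND3 and MT-CO1. Opposite MT-CO2 a value of 0.18 (SE 0.087) did not pass (edgeR adjusted p = 0.127), nor did 0.075 opposite MT-ND1 and 0.066 opposite MT-CYB. Opposite MT-ND2 it was −0.050, and opposite MT-RNR1 and MT-RNR2 −0.16 and −0.20, also without a call. Leaving out 1 library at a time, between 5 and 9 opposite-strand features rose; it was 5 without E4F1 shRNA library 1 and 5 without E4F1 shRNA library 3, where MT-ATP8, MT-ATP6 and MT-CO3 lost their calls. With DESeq2 in place of edgeR 6 rose.

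The plus-strand reads opposite MT-ND6 had 298, 272 and 281 CPM in the E4F1 shRNA libraries, against 380, 328 and 349 CPM in the control libraries. The groups did not overlap, and the log2 value of −0.31 (SE 0.060, edgeR adjusted p = 0.000911) was within the range of the plus-strand mRNAs. At the tRNA gene MT-TY, which lies on the minus strand just before MT-CO1, plus-strand reads also fell (log2 −0.59, SE 0.15, edgeR adjusted p = 0.00655), a call that was lost without E4F1 shRNA library 2 (edgeR adjusted p = 0.0539). Without E4F1 shRNA library 1 or 2 the opposite-strand features that fell numbered 5 and 1, against 2 in all libraries.

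**Figure D3:**
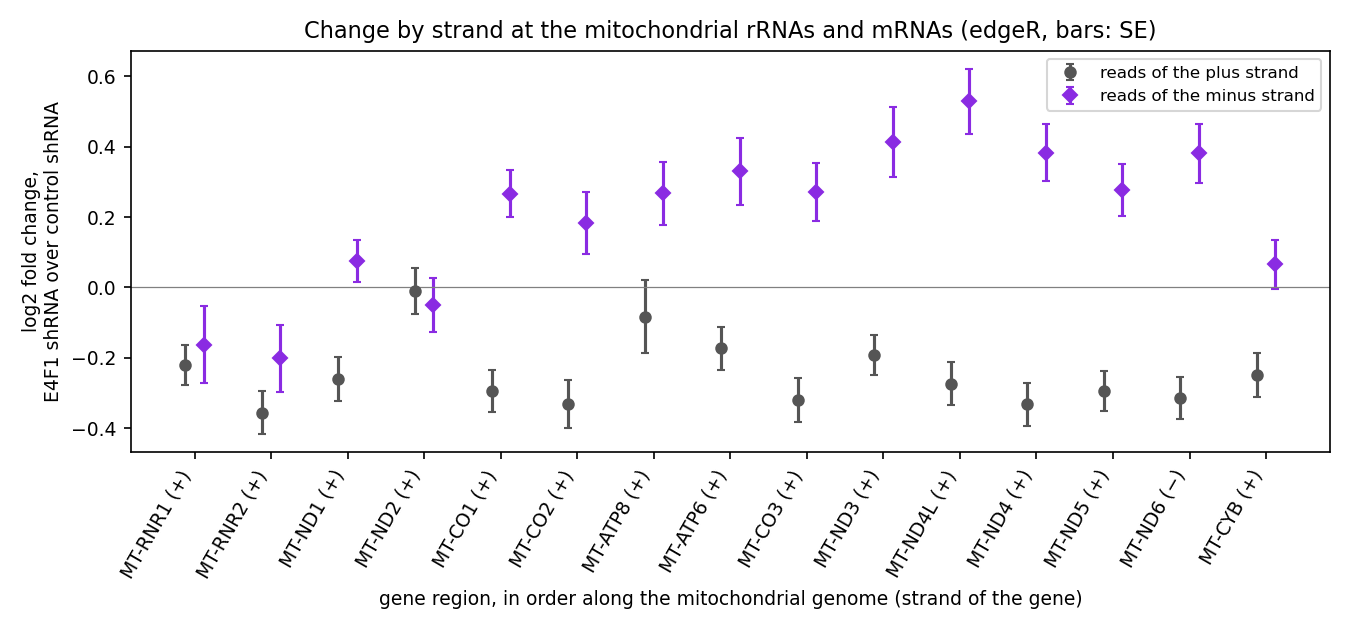
Log2 fold change (E4F1 shRNA over control shRNA, edgeR, bars are SE) of plus-strand reads (grey circles) and minus-strand reads (purple diamonds) at each rRNA and mRNA gene in genome order. Plus-strand values are at or below 0 at all 15 genes, and minus-strand values are above 0 from MT-CO1 to MT-CYB, with the highest at MT-ND4L (0.53).

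The share of minus-strand reads within a gene region does not depend on how libraries are scaled. It also rises where only plus-strand reads fall. Over the 13 mRNA regions together it was 12.7%, 12.1% and 13.6% in the E4F1 shRNA libraries, against 10.0%, 9.16% and 8.14% in the control libraries. In 11 of the 13 regions, all but those of MT-ND2 and MT-ATP8, the share in all 3 E4F1 shRNA libraries was above that in all 3 controls. Among these 11 are MT-ND1, MT-CYB and MT-CO2, where the minus-strand reads themselves were not called. The regions lie on the same precursors, so they are not independent of each other. For scale, among 3896 nuclear protein-coding genes with at least 1000 reads and no gene annotated on the other strand, most of them with fewer reads, the share of opposite-strand reads was higher without overlap in 6.67% and lower without overlap in 3%. At MT-ND5 it was 66.1% ± 0.703 in E4F1 shRNA cells and 56.7% ± 2.41 in control cells (SD, n = 3 each, two-sided exact permutation p = 0.1 for the log2 ratio of the strands). At MT-ND6 it was 69.7% ± 1.61 in E4F1 shRNA cells and 58.8% ± 2.21 in control cells (SD, n = 3 each, exact permutation p = 0.1). For 3 libraries against 3 this p of 0.1 is the smallest the test allows.

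Part of the opposite-strand reads can be reads assigned to the wrong strand in library preparation. Among the same 3896 nuclear genes the median share of opposite-strand reads was 1.19% and the 95th percentile 3.30%. The rRNA regions were at that median, with 1.09% and 1.22% minus-strand reads in E4F1 shRNA cells and 1.05% and 1.11% in control cells for MT-RNR1 and MT-RNR2. The regions of MT-CO1 (1.49% and 1.01%), MT-CO2 (2.68% and 1.89%), MT-ND2 (2.67% and 2.73%) and MT-ATP6 (3.17% and 2.25%) had shares below the 95th percentile in E4F1 shRNA and control cells, so that their minus-strand reads cannot be told apart from such reads by level. MT-CO3 (4.33% and 2.91%) was above it in E4F1 shRNA cells and below it in control cells. Above it in both groups lay MT-ND5, MT-ND6, MT-ND3 (27.1% and 19.7%), MT-ND4L (17.4% and 10.8%), MT-ND4 (14.5% and 9.34%), MT-ND1 (11.8% and 9.63%), MT-CYB (8.01% and 6.55%) and MT-ATP8 (6.27% and 4.88%).

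**Figure D4:**
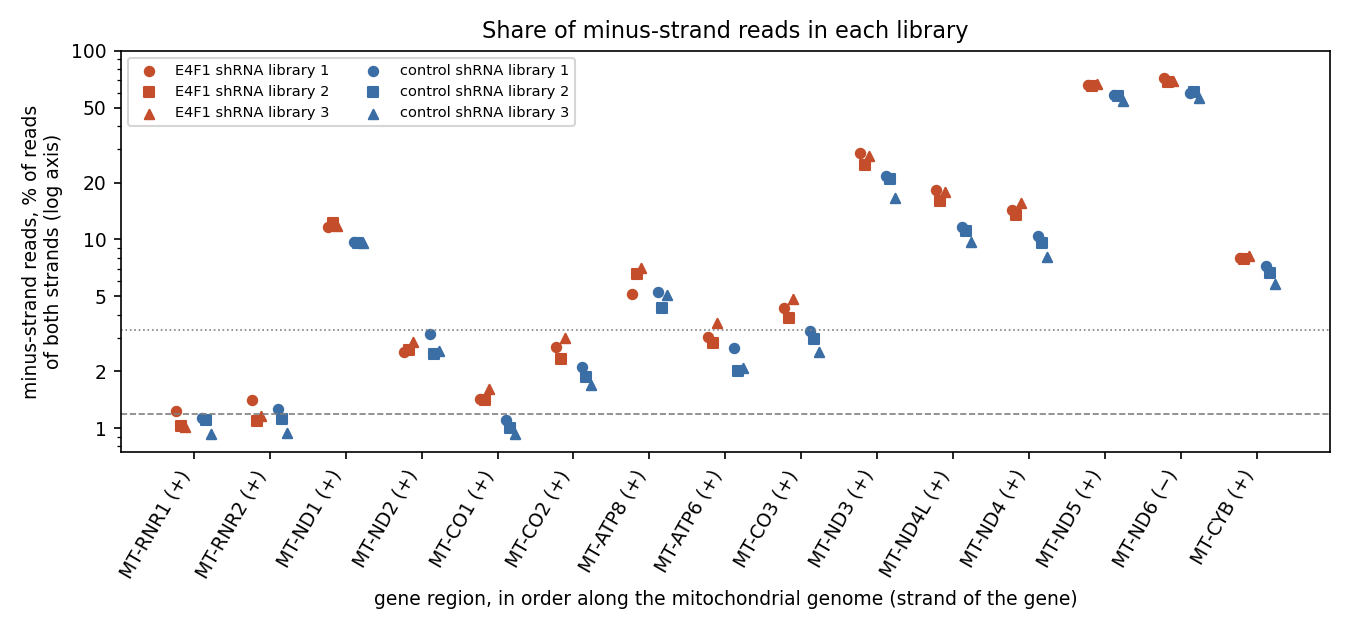
Minus-strand reads as a percentage of reads of both strands (log axis) at each rRNA and mRNA gene, in genome order; each point is a library, E4F1 shRNA left of control shRNA. The dashed and dotted lines are the median (1.19%) and 95th percentile (3.30%) of opposite-strand reads at 3896 nuclear genes; the rRNAs lie at the median and MT-ND5 and MT-ND6 above 50%.

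Per kilobase, minus-strand reads were densest at MT-ND5 and MT-ND6. The region opposite MT-ND5 had 1274 ± 97.4 CPM per kilobase in E4F1 shRNA cells and 1051 ± 113 in control cells, and MT-ND6 itself had 1251 ± 156 and 961 ± 114 (SD, n = 3 each). Within each library the density opposite MT-ND5 differed from that of MT-ND6 by −68.5, 35.2 and 102 CPM per kilobase in the E4F1 shRNA libraries, against 93.3, 79.6 and 98.2 in the controls. The region opposite MT-ND5 was thus the higher of these neighbours in 2 of 3 E4F1 shRNA libraries and in 3 of 3 control libraries. Whether the reads opposite MT-ND5 and those of MT-ND6 come from the same RNA was not tested, so their rises may not be separate observations. The density was lower opposite MT-ND3, at 854 CPM per kilobase in E4F1 shRNA cells and 641 in control cells, and lower again opposite MT-CO1, at 71.8 and 59.8. Summed over all 37 genes, plus-strand reads had 52290 ± 3854 CPM in E4F1 shRNA cells and 63549 ± 1755 in control cells, and minus-strand reads 5716 ± 517 and 4754 ± 519 CPM (SD, n = 3 each). In 1 of the E4F1 shRNA libraries the minus-strand sum, 5201 CPM, was below that of control library 1, 5314 CPM.

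Transfer RNAs, which decode the mitochondrial codons, were barely represented in these polyadenylated libraries. Their reads summed to 949 to 1112 in the E4F1 shRNA libraries and to 953 to 1101 in the control libraries. MT-TN, MT-TK and MT-TR had 0 reads in all 6 libraries, which allows up to 0.178 to 0.187 CPM in E4F1 shRNA and 0.185 to 0.200 CPM in control libraries (3 reads per library, counting error only). MT-TL1, MT-TC, MT-TY, MT-TG, MT-TS2 and MT-TL2 had at most 11 reads in a library and did not pass the low-count filter. Reads that reach from a tRNA into a neighbouring gene of the same strand are in no gene's count.

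Of the 13 tRNA genes tested 1 fell, MT-TT (tRNA for threonine, plus strand), and none rose. MT-TT had 5.85, 6.23 and 5.79 CPM in the E4F1 shRNA libraries, against 8.28, 7.78 and 8.02 CPM in the control libraries, with no overlap (log2 −0.43, SE 0.12, edgeR adjusted p = 0.0143). It lost the call with DESeq2 (adjusted p = 0.0754) and when E4F1 shRNA library 1 or control library 1 was left out (edgeR adjusted p = 0.055 and 0.0565). Its neighbour on the minus strand, MT-TP (proline), had 7.22, 9.02 and 10.4 CPM in the E4F1 shRNA libraries, against 11.6, 10.6 and 10.7 CPM in controls; the groups did not overlap but the gene was not called (log2 −0.30, edgeR adjusted p = 0.0862). The highest fitted value among the tRNAs, log2 0.80 for MT-TH (histidine), rested on 6 to 22 reads per library (edgeR adjusted p = 0.122). MT-TI (isoleucine) and MT-TF (phenylalanine), with log2 −0.31 and 0.44, overlapped between groups. The other 8, MT-TV, MT-TQ, MT-TM, MT-TW, MT-TA, MT-TS1, MT-TD and MT-TE, had log2 values between −0.26 and 0.39 and no call.

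Of 33 nuclear genes for transcription and maintenance of mitochondrial DNA and for processing and turnover of its RNA, 5 fell, 2 rose and 26 were not called (28.9% of all genes tested changed in either direction). POLRMT, the mitochondrial RNA polymerase, had 28.5 CPM in E4F1 shRNA cells and 37.3 CPM in control cells, a fall by 0.39 on the log2 scale (SE 0.084, edgeR adjusted p = 0.00242). TFB2M, which opens the promoter with it, fell by 0.22, REXO2, a nuclease of short RNAs, by 0.30, and the replication genes TWNK (helicase) and POLG (polymerase) by 0.23 and 0.20 on the log2 scale. MTERF1, a termination factor, and PNPT1, the polynucleotide phosphorylase that degrades mitochondrial RNA, rose by 0.21 and 0.18. TFAM, which packages the DNA and starts transcription, had log2 0.092 (SE 0.049, edgeR adjusted p = 0.178), and LRPPRC, which stabilises the mRNAs, −0.027 (SE 0.049, edgeR adjusted p = 0.726). The calls of PNPT1, TFB2M and MTERF1 were lost in 7, 6 and 5 of 15 alternative analyses; those of POLRMT, REXO2 and TWNK held in all 15. Leaving out E4F1 shRNA library 1 or 2 left 3 and 4 of these 33 genes called. Over all genes 3160 and 3031 were then called, against 4550 with all libraries.

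The nuclear partner subunits of the 4 complexes, which assemble with the mitochondrially encoded ones, were counted over a fixed list. Of 72 measured 16 fell and 3 rose, with a median log2 fold change of −0.10, against the 14.4% of all genes that fell. In cytochrome c oxidase 6 of 11 fell, among them COX4I1 (log2 −0.41) and NDUFA4 (−0.21), and in ATP synthase 7 of 15 fell, among them ATP5MC1 (−0.34) and ATP5MC2 (−0.31), which encode the ring of its rotor. In complex I 3 of 36 fell, among them NDUFS6 (−0.21), and 2 rose, NDUFS3 by 1.17 being the larger; in complex III none of 10 fell and UQCRQ rose by 0.55, while UQCR10 had log2 −0.12 (edgeR adjusted p = 0.104). The count of 16 was 7 without E4F1 shRNA library 1, 8 without control library 3, and 10 without E4F1 shRNA library 2 or 3. Calls over all genes also dropped, from 4550 changed genes to 3160 without E4F1 shRNA library 1 and 3176 without control library 3. Without E4F1 shRNA library 2 or 3 they were 3031 and 3950.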

How the data were processed

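The authors deposited 1 table of unnormalized read counts for each of the 6 libraries, laid out as STAR gene counts; bcl2fastq 2.20, STAR 2.5.1b and GRCh38 are named per the submitters' processing notes, while no release of the annotation is named. Column 4 (reverse strand) gave the gene counts, column 3 the opposite-strand counts, and column 2 (strand ignored) an alternative. Lines for unmapped, multimapping, ambiguous and unassigned reads held 27.1% to 31.7% of each table and were left out; so reads shared with nuclear copies of mitochondrial DNA are in no gene. Symbols and coordinates are from GENCODE release 29; 57881 of 58219 identifiers matched without version, the 37 mitochondrial ones also with it.

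Counts were tested with edgeR 4.0.16 in R 4.3.3 (filterByExpr, TMM, quasi-likelihood F-test, group only, two-sided), with Benjamini-Hochberg adjustment over all features and a threshold of 0.05. The steps were tested on simulated data. DESeq2 1.42.0, limma-voom (limma 3.58.1), other scalings and filters, a replicate block and leaving out each library were alternatives. Named were all members, E4F1, nuclear copies of at least 10 CPM, called expression factors with POLRMT, TFAM and LRPPRC, and for each complex the 2 subunits with the smallest adjusted p and the called one that rose most. Members and lists were chosen with earlier results of these data known.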

Additional observations from a re-analysis of the deposited data

How the results depend on the processing

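With strand ignored, 6 mitochondrial mRNAs fell and 0 rose (edgeR; MT-ND6 had adjusted p = 0.17 at log2 0.13), and MT-ND5 reversed to 0.053, since that column adds the reads of both strands. Without a low-count filter 5 rRNAs and tRNAs were called, against 3. MT-ND2 was 0.00082 with DESeq2 and with its size factors, and 0.0019 without a filter; MT-TS1 was −0.0018 with the stricter filter. Leaving out 1 library at a time gave 3031 (without E4F1 shRNA library 2) to 5370 changed genes, 2 to 5 rRNAs and tRNAs (5 without E4F1 shRNA library 3), 5 to 9 rises and 1 to 5 falls of opposite-strand features, 3 to 6 expression factors, and 9 to 19 partner subunits (7 to 15 lower). It turned the sign of uncalled log2 values of MT-ND2 (−0.081 to 0.063), MT-ATP8 (−0.27 to 0.016), MT-TQ (−0.20 to 0.091), MT-TS1 (−0.12 to 0.11), MT-TE (−0.17 to 0.27), MT-TV (−0.18 to 0.72), MT-TA (−0.26 to 0.073), MT-TD (−0.35 to 0.056), LRPPRC (−0.038 to 0.0049), MTND2P28 (−0.081 to 0.17) and the reads opposite MT-ND2 (−0.11 to 0.081). The cause was not tested. MT-ND4, MT-CO1, MT-CO2, MT-CO3, MT-CYB and MT-RNR2 kept their calls in all 15 alternatives.

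Libraries with the same number did not deviate together (r = 0.0070, 0.047 and 0.048 across genes), and 2 of 6 correlated best with their own number; with the replicate number as a block 4865 genes changed, against 4550, with 10 mRNAs lower, 1 higher and 12 opposite-strand features called, against 10.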

Other observations

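Copies of parts of mitochondrial DNA stand in the nuclear genome. Of 417 annotated genes taken as copies by their symbols 336 had 0 reads in all libraries, and 2 averaged at least 10 CPM, both on chromosome 1. How closely each gene matches mitochondrial DNA was not measured. MTATP6P1 (633696 to 634376) had 595, 538 and 490 CPM in the E4F1 shRNA libraries, against 625, 622 and 623 CPM in the control libraries (log2 −0.20, SE 0.062, edgeR adjusted p = 0.0196), and the fall was close in size to that of MT-ATP6 (log2 −0.17); the call was lost without E4F1 shRNA library 2 or 3 or control library 1. MTND2P28 (629640 to 630683) had 194, 154 and 137 CPM in the E4F1 shRNA libraries, against 154, 164 and 146 CPM in the controls (log2 0.062, SE 0.090, edgeR adjusted p = 0.644), with the same library highest as for MT-ND2. How many reads of these copies came from mitochondrial transcripts was not tested.

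Among mitochondrial mRNA reads MT-ND2 took 8.94%, 9.02% and 8.57% in the E4F1 shRNA libraries, against 7.44%, 7.77% and 7.26% in the controls. MT-ATP6 took 8.52%, 8.62% and 8.39%, against 8.07%, 8.23% and 7.86%. MT-ND3 took 2.05%, 2.11% and 2.11%, against 1.98% to 2.02% in the controls. The shares of MT-CO3, MT-ND4 and MT-CO2 were lower in E4F1 shRNA cells, with no overlap. MT-CO3 took 15.4%, 15.8% and 15.4% in the E4F1 shRNA libraries, against 16.2%, 16.0% and 16.6% in the controls. MT-ND4 took 12.9%, 12.9% and 13.1%, against 13.7%, 13.5% and 13.8%, and MT-CO2 10.7%, 10.5% and 10.0%, against 10.9%, 11.2% and 11.0%. MT-CO1 took 19.0%, 19.4% and 19.9%, against 19.9%, 19.7% and 20.3%, and the groups overlapped, as they did for MT-ND1, MT-ATP8, MT-ND4L, MT-ND5 and MT-CYB. These shares sum to the whole in each library, so they are not independent of each other.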
